A study of Mus musculus with 2 samples.

Results

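The genes described here code for the proteins that make, break down and act on cyclic AMP (cAMP): the Gs and Gi alpha subunits, the adenylyl cyclases, the cyclic nucleotide phosphodiesterases, the subunits of protein kinase A (PKA) and the A-kinase anchor proteins. Membership followed a rule on gene names. It took the probes labelled Adcy, Pde, Prkac, Prkar or Akap followed by a number or a letter and number, or labelled Gnas or Gnai1 to Gnai3. The members were chosen by this rule with earlier results of these data known. Akap3 and Akap4 were left out by that rule, and the names Adcyap1, Adcyap1r1 and Pde4dip fell outside it. In all, 48 of 17325 gene names on the arrays were members, 23 on the first array and 25 on the second. They comprised 4 Gs and Gi alpha subunits, 8 adenylyl cyclases, 7 phosphodiesterases of cAMP, 7 of cAMP and cGMP, 8 of cGMP, 2 PKA catalytic subunits, 4 PKA regulatory subunits and 8 anchors.

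As background, Gs alpha turns adenylyl cyclase on and Gi alpha turns most cyclases off, and phosphodiesterases end the signal by splitting cAMP, cGMP or both. cAMP releases the catalytic subunits of PKA from its regulatory subunits, while anchor proteins hold the kinase at particular places in the cell. PKA phosphorylates transcription factors of the CREB family. CREM, the cAMP-responsive element modulator, is a member of that family that is abundant in spermatids, where it is needed for the expression of many genes of sperm formation, and the family binds the cAMP response element TGACGTCA or its shorter core.

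The question addressed was where along gene promoters CREM antibody recovers more DNA than a control antibody does. Germ cells from 5 testes of adult male C57BL/6 mice were fixed with formaldehyde and sonicated. Chromatin was precipitated with a CREM antibody (sc-440, Cy5 dye) or with goat IgG (Cy3 dye), and both were hybridised together on a set of 2 promoter arrays that carry different genes. No gene was perturbed, so each group is wild type chromatin, and no separate cell types were sorted as far as the labels say, so the values are averages over mixed germ cells. DNA carries no expression markers, so the labelled cell type could not be checked.

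Each array was hybridised once, so there is no replicate error on any value below, no test was possible and no p-value is given. The only measure of technical spread was that of control probes printed many times within an array, whose bright spots had a median SD of 0.14 on the log2 scale (0.08 to 0.23, n = 17 control probes) on the first array and 0.12 (0.06 to 0.28, n = 17) on the second. That spread covers spots on 1 slide, not cultures, animals or precipitations. CREM was always in Cy5 and IgG always in Cy3, so antibody and dye cannot be told apart. Median signals were 788 for IgG and 790 for CREM on the first array, and 779 and 781 on the second. Of the 1734 member probes 1682 were used, and in 1383 the IgG and the CREM signal were both well above background, here called bright.

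Every value is a log2 ratio of the CREM signal over the IgG signal, set to a median of 0 on each array. A window is the median of 3 neighbouring probes whose starts lay at most 500 bp apart, and each gene is given by its highest and its lowest window. A window at 1 or more, which is 2-fold, is said to lie on the CREM side, and one at -1 or less on the IgG side, the side that serves as background. Where an IgG signal was not well above background the ratio as measured has no exact meaning, and only a bound can be given. For members on the CREM side the fold is then also given as "at least", and the bounds of the others follow the account of the roles, with dim signals raised to the lowest signal that was well above background (305.6 for IgG on the first array and 287.5 on the second).

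The highest windows, in order, were those of the PKA regulatory subunit gene Prkar1a (3.13), the nuclear anchor gene Akap8l (2.58), the regulatory subunit gene Prkar2a (2.49), the phosphodiesterase gene Pde4a (1.85) and the PKA catalytic subunit gene Prkaca (1.76). Those of Prkar1a and Prkar2a rested on dim IgG signals and were bounded at 2.00-fold and 1.23-fold. On the ratios as measured, PKA subunit genes carried 24 of the 59 CREM-side windows of the 48 genes, all of them in Prkar1a, Prkar2a, Prkaca and Prkacb. Of the 1391 member windows the catalytic subunits had 50 and the regulatory subunits 91. No count by role with dim signals raised is given here. The roles other than the PKA subunits each had a smaller share of such windows than the 5.99% of all windows. That share was lowest, at 1.39%, in the adenylyl cyclases and in the Gs and Gi subunits. In all 20 of 48 members (41.7%) had a window on the CREM side, against 34.4% of all 17327 genes counted per array (2 names are on both). By array these were 10 of 23 (43.5%) against 33.3% on the first and 10 of 25 (40.0%) against 35.6% on the second.

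The count of genes is raised by long probe tiles, since members had a median of 27 windows and all genes 19. Among genes with 20 to 40 windows the shares lay closer, at 15 of 35 members (42.9%) against 38.9% of all such genes. On the first array they were 6 of 17 (35.3%) against 37.2%, and on the second 9 of 18 (50%) against 40.5%. Counted by windows, 59 of 1391 member windows (4.24%, 95% Wilson interval 3.3 to 5.43) were on the CREM side against 5.99% of all windows. The array values were 4.47% against 5.66% and 3.96% against 6.32%. Windows overlap, share probes and come from the same 48 genes, while the interval treats them as independent. It is therefore likely too narrow even for counting error, and it is not a test. The members as a list were thus close to the arrays' background on the CREM side by genes and below it by windows, and the median highest window was 0.81 for members and 0.77 for all genes.

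On the IgG side the members' shares lay above those of all genes. Once the trend of the ratio with GC content was removed the shares no longer did, while the median lowest window stayed lower. Of the 48 genes 27 (56.2%) had a window at -1 or less, against 33.6% of all genes; on the first array 12 of 23 (52.2%) against 34.4% and on the second 15 of 25 (60.0%) against 32.9%. Among genes of 20 to 40 windows the shares were 21 of 35 (60.0%) against 43.5%, with 9 of 17 (52.9%) against 44.0% and 12 of 18 (66.7%) against 43.1% on the 2 arrays. By windows, 79 of 1391 (5.68%, 95% Wilson interval 4.58 to 7.02) lay there against 4.56% of all windows, or 5.0% against 4.61% and 6.5% against 4.51% by array. That interval is likely too narrow for the same reason and is not a test. The median lowest window was -1.07 for members and -0.76 for all genes. IgG-side windows were GC-rich in members (mean 61.3%) and in all genes (58.5%). With the GC trend removed 6 of 48 members had such a window, against 12.6% of all genes, and 0.647% of member windows lay there against 1.24% of all windows. The median lowest window was then -0.7 for members and -0.59 for all genes, so by that measure members stayed lower. Of the members 12 had windows on both sides and 13 on neither. The same counts over all genes are not given here, and members had more windows per gene, so these 2 counts are not read as a trait of the members.

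**Figure D1:**
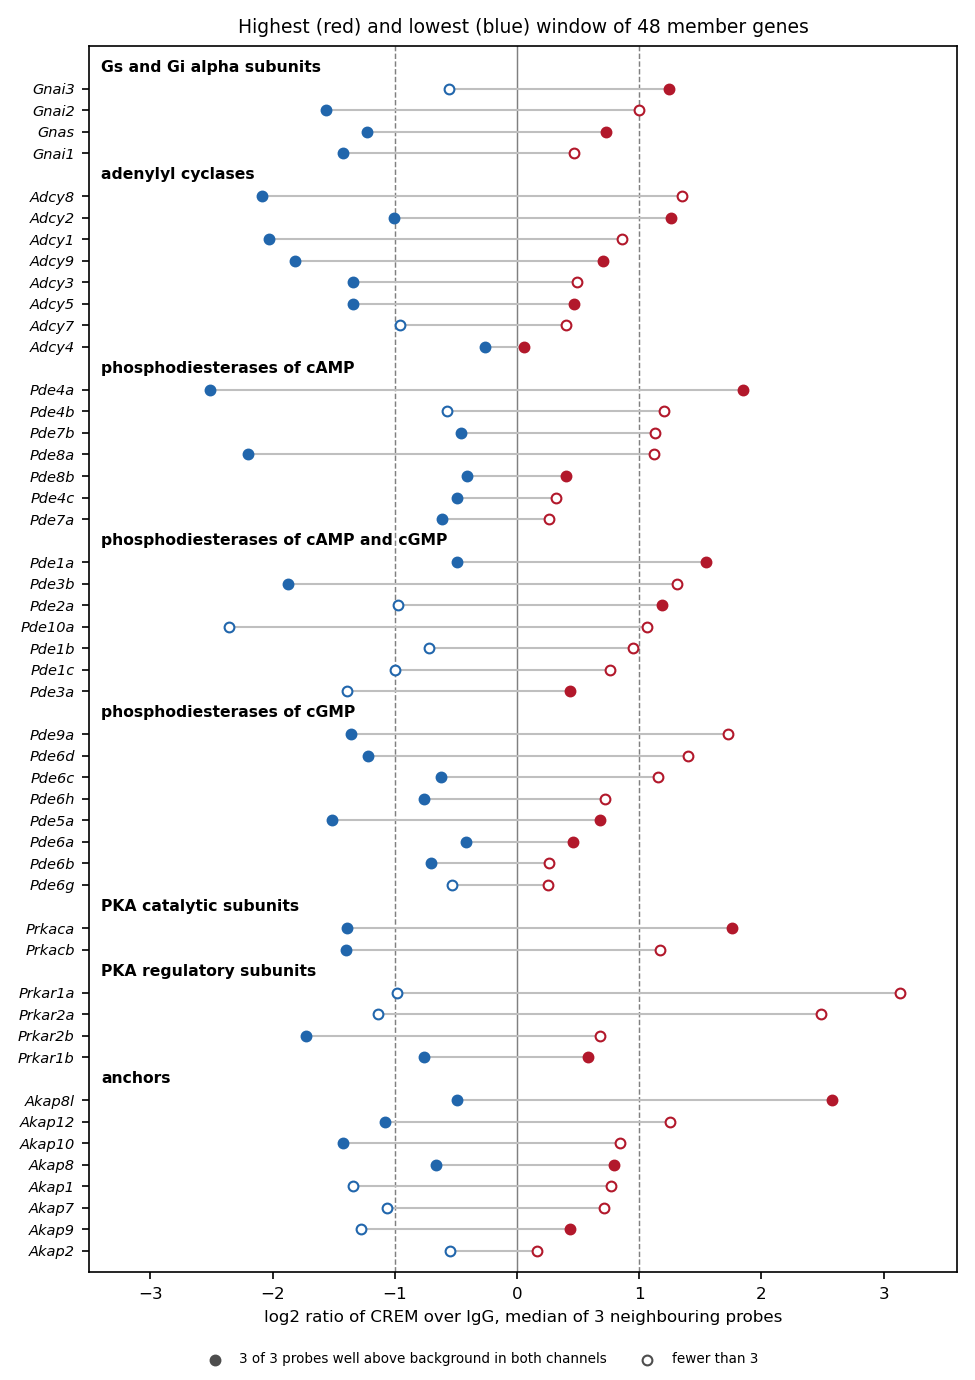
Highest (red) and lowest (blue) window of each of the 48 genes, as the log2 ratio of CREM over IgG, grouped by role. Filled points have 3 bright probes of 3, and dashed lines mark 1 and -1; Prkar1a (3.13), Akap8l (2.58) and Prkar2a (2.49) lie furthest to the right, and Pde4a (-2.51) furthest to the left.

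**Figure D2:**
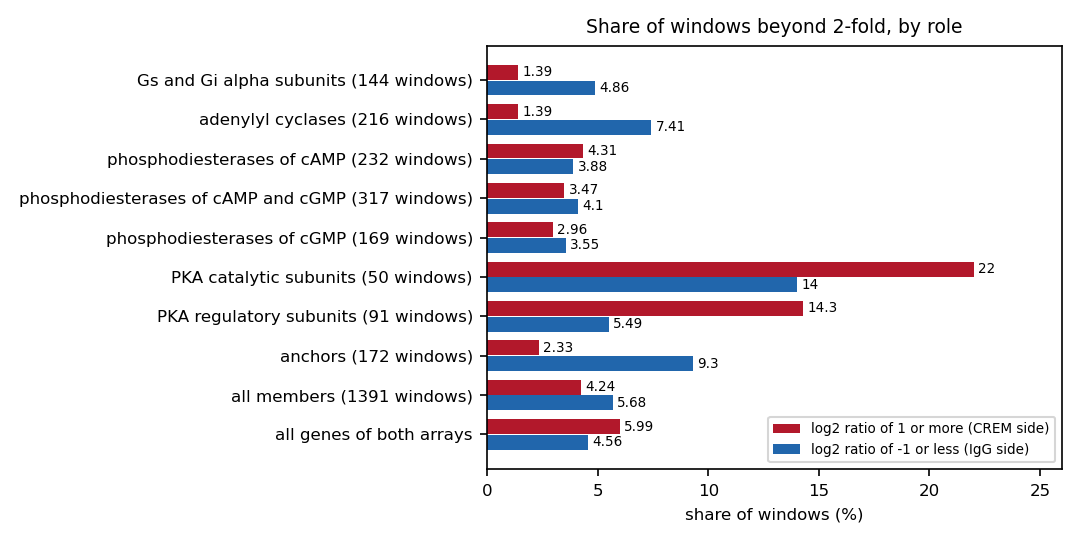
Share of windows on the CREM side (red) and the IgG side (blue) in each role, in percent, with all members and all genes for comparison. Ratios are as measured, with dim signals not raised. The 2 PKA groups reach 22% and 14.3% on the CREM side, where all genes stand at 5.99%. Every other role lies below that share, from 1.39% for the cyclases and for the Gs and Gi subunits to 4.31% for the phosphodiesterases of cAMP.

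Among the G protein subunits, Gnai3 was the gene with a window on the CREM side. Gnai3 codes for an inhibitory alpha subunit. The 3 probes of its highest window, at chr3:107949376-107949699 (mm9), were 0.82, 1.24 and 2.16, all bright in both channels, and the window value was 1.24. It lay 468 bp upstream of the matched RefSeq start, and 1 probe of the gene Gpr61 was within 2 kb. The highest window of Gnai2, another inhibitory subunit, was at 1.00 after rounding and just under the limit, with 2 dim IgG signals. Gnas, which codes for Gs alpha itself, had probes of 0.70, 1.22 and 0.73 and a window of 0.73, and Gnai1 reached 0.47. On the IgG side Gnai2 (-1.56), Gnai1 (-1.42) and Gnas (-1.23) all passed -1, while Gnai3 stayed at -0.56. Of the 144 windows of these genes 1.39% reached the CREM side, while 4.86% were at -1 or less, against 5.99% and 4.56% of all windows.

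The adenylyl cyclases, which make cAMP from ATP, were mostly low. The median of their highest windows was 0.59 (range 0.06 to 1.35). Of 8 cyclases 2 reached the CREM side, against 34.4% of all genes, and 6 the IgG side, against 33.6%. Of their 216 windows 1.39% and 7.41% lay on these sides, against 5.99% and 4.56% of all windows. Adcy2 had the highest window with bright probes, of 1.57, 0.98 and 1.26 at chr13:69135837-69136375, and a window value of 1.26. Adcy8, a cyclase that calcium and calmodulin stimulate, had a higher window value of 1.35 from probes of 1.54, 0.85 and 1.35. IgG was dim in the outer 2 probes, and the window was at least 1.06-fold. Adcy9 had probes of 0.89, 0.70 and -0.18 (window 0.70) and Adcy5 of 0.47, 0.14 and 0.59 (window 0.47). The highest windows of the other cyclases were 0.86 for Adcy1, 0.49 for Adcy3, 0.40 for Adcy7 and 0.06 for Adcy4.

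The lowest windows of Adcy8, Adcy1 and Adcy9 were among the lowest of all members. Adcy8 had probes of 0.12, -2.30 and -2.09 (window -2.09) at chr15:64752207-64752559, Adcy1 of -2.55, -2.03 and -1.01 (window -2.03) and Adcy9 of -1.75, -1.82 and -3.05 (window -1.82). All 9 probes were bright in both channels. The windows of Adcy9 and Adcy1 lay 205 and 648 bp downstream of a matched start. Adcy3 and Adcy5 were at -1.34 each and Adcy2 at -1.01, while Adcy7 (-0.96) and Adcy4 (-0.26) did not reach -1. With the GC trend removed Adcy1 was still beyond -1, at -1.80. Adcy8 (-0.96), Adcy9 (-0.48), Adcy3 (-0.83), Adcy5 (-0.77) and Adcy2 (-0.70) then did not reach -1.

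Of the phosphodiesterases that act on cAMP alone, Pde4a stood out. In this role 4 of 7 reached the CREM side, against 34.4% of all genes, with a median highest window of 1.12 (range 0.26 to 1.85). Of the 232 windows of the role 4.31% lay there and 3.88% on the IgG side, against 5.99% and 4.56% of all windows. Pde4a codes for a cAMP phosphodiesterase of the rolipram-sensitive family. The probes of its highest window, printed here because the middle one holds a core of the cAMP response element, follow in order of position, with capitals for TGACG or its complement CGTCA and lower case elsewhere.
Pde4a probe, chr9:20966205-20966249 (mm9): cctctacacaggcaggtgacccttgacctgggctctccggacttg
Pde4a probe, chr9:20966422-20966477 (mm9): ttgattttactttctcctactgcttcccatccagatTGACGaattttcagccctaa
Pde4a probe, chr9:20966595-20966654 (mm9): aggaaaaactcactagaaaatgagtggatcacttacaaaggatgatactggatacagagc
Their values were 0.66, 1.85 and 3.04, all bright in both channels, each higher than the one before, and the window value was 1.85. At or above this value were 6.55% of the genes of the first array. Pde4a had 6 CREM-side windows of 48. The nearest matched start lay 3728 bp downstream of this window.

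The same gene had the lowest window of all members, with bright probes of -2.51, -1.10 and -2.72 (window -2.51) at chr9:20970199-20970540, 212 bp downstream of a matched start. Pde8a, a phosphodiesterase of high affinity for cAMP, also had windows on both sides. Its highest window was 1.12, from 0.34, 1.70 and 1.12 (IgG dim in the first, window at least 2.17-fold), 1316 bp downstream of the matched start, and its lowest was -2.20, from bright probes of -2.20, -0.81 and -2.50, 709 bp downstream of it. With the GC trend removed the lowest window was -0.99 for Pde4a and -0.98 for Pde8a, so neither reached -1. The CREM-side windows of Pde4b (1.20, at least 1.31-fold; probes 2.11, 0.84 and 1.20) and Pde7b (1.13, at least 1.44-fold; probes 1.13, 0.53 and 1.28) rested on dim IgG signals. Pde8b had probes of 0.53, -0.51 and 0.40 (window 0.40), and Pde4c (0.32) and Pde7a (0.26) were lower still.

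Of the phosphodiesterases that split both cyclic nucleotides, 4 of 7 reached the CREM side and 4 of 7 the IgG side. Pde1a, a calcium and calmodulin dependent enzyme, had the highest window, with the 3 probes printed here because they were the most even of the windows above 1.5: each was bright in both channels and each above 1, and none holds a core.
Pde1a probe, chr2:79748699-79748758 (mm9): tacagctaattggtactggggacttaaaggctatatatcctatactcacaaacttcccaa
Pde1a probe, chr2:79748894-79748953 (mm9): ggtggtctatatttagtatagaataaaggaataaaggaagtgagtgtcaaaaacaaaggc
Pde1a probe, chr2:79749280-79749339 (mm9): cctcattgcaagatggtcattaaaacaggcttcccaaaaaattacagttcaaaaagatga
Their values were 1.77, 1.38 and 1.55, the window value was 1.55, and its centre lay 463 bp upstream of a matched start. Pde1a had 5 CREM-side windows of 57 and none on the IgG side. Pde2a, an enzyme that cGMP stimulates, had bright probes of -0.31, 1.35 and 1.19 (window 1.19), far inside its tiled region at 49254 bp from the matched start. The windows of Pde3b and Pde10a were over 1 on dim IgG signals. Pde3b had probes of 1.31, 1.13 and 1.49 (window 1.31, at least 1.36-fold). Pde10a had probes of 1.88, -0.38 and 1.06 (window 1.06), and with its dim signals raised the window was at -0.37; 6 probes of the gene 1700010I14Rik lay within 2 kb. Pde1b was just under the limit at 0.95, Pde1c reached 0.76, and Pde3a had probes of 0.43, -0.28 and 0.71 (window 0.43). On the IgG side Pde10a was at -2.36 with 1 dim CREM signal, Pde3b at -1.87, Pde3a at -1.39 and Pde1c at -1.0.

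The phosphodiesterases of cGMP, most of which serve in photoreceptors, were led by windows on dim IgG signals. Pde9a had probes of 1.86, -0.39 and 1.73 (window 1.73), none of them bright in both channels, and was at least 1.04-fold. Pde6d, whose product binds prenylated proteins, had probes of 0.65, 2.62 and 1.40 (window 1.40, at least 1.57-fold), and the cone gene Pde6c of 0.50, 1.15 and 2.12 (window 1.15, at least 1.41-fold). None of these 3 kept a window at 1 or more once dim signals were raised. Windows with 3 bright probes were lower. Pde5a, which codes for the target of sildenafil, had 0.68, -0.42 and 1.02 (window 0.68), and the rod gene Pde6a had 0.46, 0.06 and 0.61 (window 0.46). Pde6h (0.72), Pde6b (0.26) and Pde6g (0.25) made up the rest. On the IgG side Pde5a (-1.51), Pde9a (-1.36) and Pde6d (-1.22) passed -1.

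The catalytic subunits of PKA were 2 genes with 50 windows. Of these 11 (22%) reached the CREM side and 7 (14%) the IgG side, against 5.99% and 4.56% of all windows. The windows overlap and come from only 2 genes, so these shares are a description. Prkaca, which codes for the main catalytic subunit and, from another start, for the form found in sperm, had the largest number of CREM-side windows of any member, 8 of 27. The 3 probes of its highest window are printed with the RefSeq promoter (GRCm38.p6, 250 bases before to 50 after the start) to show the cores near the start, where the probes were low; capitals mark the cores.
Prkaca probe, chr8:86495795-86495839 (mm9): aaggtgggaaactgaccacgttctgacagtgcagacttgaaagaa
Prkaca probe, chr8:86495989-86496044 (mm9): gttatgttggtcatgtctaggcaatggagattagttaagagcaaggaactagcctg
Prkaca probe, chr8:86496141-86496188 (mm9): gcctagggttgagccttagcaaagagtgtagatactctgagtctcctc
Prkaca RefSeq promoter, chr8:83972728-83973027 (GRCm38.p6, plus strand): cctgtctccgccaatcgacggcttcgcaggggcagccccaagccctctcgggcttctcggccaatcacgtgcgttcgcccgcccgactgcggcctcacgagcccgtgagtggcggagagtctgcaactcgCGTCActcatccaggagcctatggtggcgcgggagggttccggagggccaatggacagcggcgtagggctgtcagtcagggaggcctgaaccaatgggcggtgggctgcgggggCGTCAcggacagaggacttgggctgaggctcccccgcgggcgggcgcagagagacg
The probe values were 0.94, 1.76 and 1.98, all bright in both channels, and the window value was 1.76 at a centre 886 bp upstream of the matched start. The 5 probes before this window were also above 0, from 0.87 to 1.59. The next 4 probes towards the start were at -1.85, -1.32, -1.39 and -1.12. The lowest window, -1.39, was centred 288 bp upstream of the start, and 2 of its probes (-1.85 and -1.39) hold a core. Asf1b, a histone chaperone gene, had 2 probes within 2 kb of the highest window.

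Prkacb, the other catalytic subunit gene, had a highest window of 1.17, from probes of -1.05, 1.67 and 1.17, with IgG dim in the last. That window was at least 1.29-fold and lay 540 bp upstream of the matched start. Its lowest window was -1.40, from bright probes of -0.87, -1.52 and -1.40, 380 bp downstream of the start. Both catalytic genes thus had high probes upstream and low probes nearer the start or just past it. Probes of all genes had a similar layout, with medians of 0.22 from 1000 to 500 bp upstream and -0.33 from 50 to 500 bp downstream. With the GC trend removed the lowest window was -0.33 for Prkaca and -0.35 for Prkacb.

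Of the 4 regulatory subunit genes, 2 were among the highest of all members and 2 reached no window at 1. On the CREM side lay 13 of 91 windows (14.3%), against 5.99% of all windows, 6 of them in Prkar1a and 7 in Prkar2a. Prkar1a codes for the type I alpha regulatory subunit, the gene that is mutated in Carney complex. It is also the member whose RefSeq promoters hold the full element TGACGTCA, so its probes and the promoter are printed, with the element and the cores in capitals.
Prkar1a probe, chr11:109513063-109513107 (mm9): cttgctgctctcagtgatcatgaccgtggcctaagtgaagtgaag
Prkar1a probe, chr11:109513207-109513261 (mm9): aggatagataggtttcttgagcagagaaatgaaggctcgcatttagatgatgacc
Prkar1a probe, chr11:109513341-109513396 (mm9): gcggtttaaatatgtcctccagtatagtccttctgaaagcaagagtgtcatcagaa
Prkar1a RefSeq promoter, chr11:109650612-109650911 (GRCm38.p6, plus strand): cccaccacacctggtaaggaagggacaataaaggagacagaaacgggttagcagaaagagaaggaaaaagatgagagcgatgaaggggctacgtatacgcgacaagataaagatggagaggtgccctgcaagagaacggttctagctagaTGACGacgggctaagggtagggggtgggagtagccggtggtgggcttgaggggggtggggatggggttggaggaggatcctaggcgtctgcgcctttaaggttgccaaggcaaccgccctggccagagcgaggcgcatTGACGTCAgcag
The probe values were -0.32, 3.59 and 3.13 and the window value 3.13, which 0.346% of the genes of the second array reached or passed. The first probe was bright in both channels, with signals of 643 for IgG and 520.5 for CREM. In the other two the IgG signals were 63.46 and 65.97, not well above background, against CREM signals of 774.5 and 584. With the dim signals raised the window was at least 2.00-fold. The next 2 probes downstream were bright and stood at 1.12 and 0.98.

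The full element of Prkar1a begins 38 bases after 1 RefSeq start and 49 before another, at chr11:109512214-109512221 on the array's build. No probe covers it. The nearest used probe upstream, 174 bp away, was at 2.06, but its IgG signal of 66.35 was dim and its CREM signal of 279.6 was under the floor for IgG, so that no ratio above 0 is bounded there. The nearest downstream, 154 bp away, was at -1.64 with both channels bright. The centre of the highest window lay 1012 bp downstream of the element and 574 bp from the nearest matched start.

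Prkar2a, the type II alpha regulatory subunit, came after Prkar1a and Akap8l. Its probes are shown because none of the 3 IgG signals was well above background.
Prkar2a probe, chr9:108595755-108595814 (mm9): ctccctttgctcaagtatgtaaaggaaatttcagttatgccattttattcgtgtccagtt
Prkar2a probe, chr9:108595859-108595918 (mm9): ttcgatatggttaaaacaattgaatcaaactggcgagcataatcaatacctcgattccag
Prkar2a probe, chr9:108595995-108596054 (mm9): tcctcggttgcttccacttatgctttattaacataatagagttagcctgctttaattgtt
The values were 2.88, 0.25 and 2.49 with IgG signals of 62.66, 98.53 and 63.23, and the window value of 2.49 became at least 1.23-fold. A separate run of 4 bright probes in the same gene, between 1975 and 2423 bp upstream of that window, stood at 1.67, 1.22, 1.18 and 1.35. With dim signals raised the highest window of Prkar2a was 1.22, so the gene kept a window at 1 or more. Between the 2 sites, 1416 bp upstream of the highest window, a bright probe stood at -2.0. Prkar1b, the type I beta subunit, had bright probes of 0.43, 0.59 and 0.58 (window 0.58), and Prkar2b reached 0.68. On the IgG side Prkar2b was at -1.73 and Prkar2a at -1.14, while Prkar1a (-0.98) and Prkar1b (-0.76) did not reach -1.

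**Figure D3:**
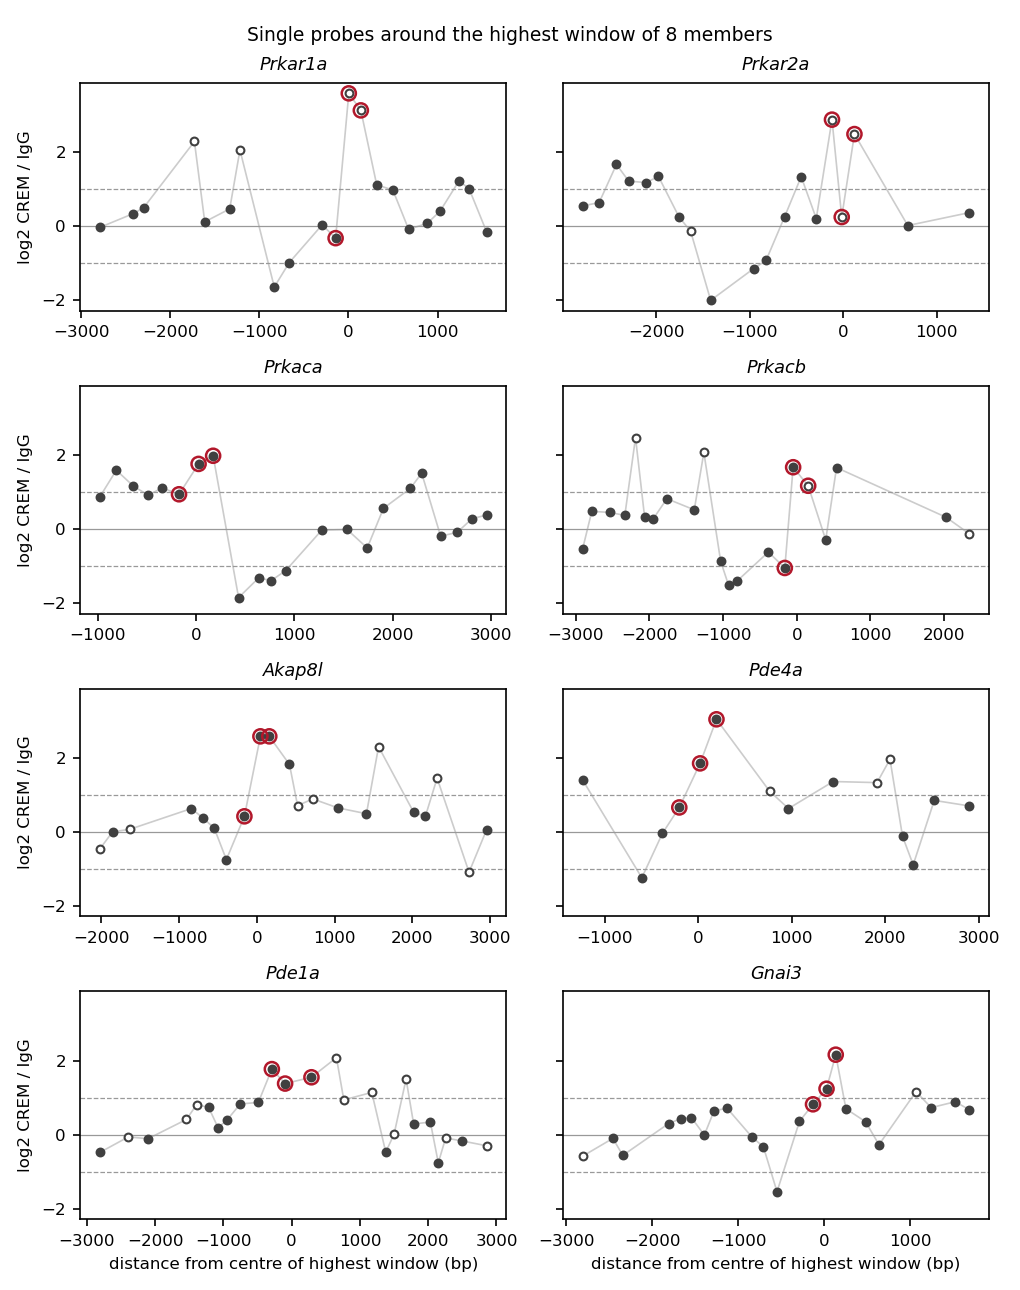
Log2 ratio of CREM over IgG of each used probe around the highest window of 8 members, against the distance in bp from the centre of that window along the chromosome. Filled points are bright in both channels and red rings mark the 3 probes of the window; the rings of Akap8l, Pde4a, Prkaca, Pde1a and Gnai3 are filled throughout, while those of Prkar2a (2.88, 0.25 and 2.49) are all open.

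Among the anchors, Akap8l was set apart from the other 7. It codes for a nuclear protein related to the anchor AKAP8, and the 2 genes lie near each other on chromosome 17. Its probes are shown because the window had 3 bright probes and the second highest value of all members.
Akap8l probe, chr17:32486999-32487043 (mm9): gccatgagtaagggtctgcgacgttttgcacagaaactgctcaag
Akap8l probe, chr17:32487203-32487250 (mm9): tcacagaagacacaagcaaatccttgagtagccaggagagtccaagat
Akap8l probe, chr17:32487319-32487363 (mm9): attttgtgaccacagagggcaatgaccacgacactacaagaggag
Akap8l RefSeq promoter, chr17:32350528-32350827 (GRCm38.p6, minus strand): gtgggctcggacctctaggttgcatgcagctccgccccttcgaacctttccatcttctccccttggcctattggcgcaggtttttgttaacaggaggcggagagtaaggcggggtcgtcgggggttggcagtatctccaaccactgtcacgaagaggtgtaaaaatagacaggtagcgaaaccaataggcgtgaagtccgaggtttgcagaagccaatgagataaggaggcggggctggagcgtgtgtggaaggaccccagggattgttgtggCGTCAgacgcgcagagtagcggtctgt
The values were 0.42, 2.58 and 2.58 on IgG signals of 534.8, 786.9 and 1446, the window value was 2.58, and 1.86% of the genes of the second array were at or above it. The centre lay 341 bp downstream of the matched start, and 3 of the 34 windows of Akap8l were on the CREM side, with none on the IgG side. The core in its promoter begins 23 bases after the start.

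The other anchors were lower. Akap12, a scaffold that also binds protein kinase C, had a highest window of 1.25 from 1.25, 0.58 and 2.49 (IgG dim in the last, at least 1.99-fold). Akap8 had bright probes of 0.79, 1.49 and 0.09 (window 0.79), and Akap9, an anchor at the centrosome and Golgi, of 0.57, 0.43 and -0.37 (window 0.43). Akap10 reached 0.84, the mitochondrial anchor Akap1 0.77, Akap7 0.71 and Akap2 0.16. On the IgG side 5 of 8 anchors passed -1, from -1.42 for Akap10 to -1.06 for Akap7, against 33.6% of all genes. Of their 172 windows 9.3% lay there and 2.33% on the CREM side, against 4.56% and 5.99% of all windows. With the GC trend removed Akap10 was at -1.14, while Akap12 (-0.93), Akap9 (-0.67), Akap7 (-0.61) and Akap1 (-0.37) did not reach -1.

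The strength of the IgG signal and the processing decided several of these windows. Of the 20 members on the CREM side 7 had 3 probes bright in both channels, 14 had at least 2 such windows, and 3 had another gene within 2 kb. With dim signals raised 10 of the 20 kept a window at 1 or more. In 12 other ways of processing the values the highest window of each gene was taken anew, so it can lie elsewhere. By that measure Pde4a, Prkaca, Prkar2a and Akap8l stayed at 1 or more throughout. The window of Prkar2a reported above was itself at 0.30 with dim signals raised. Prkar1a was under 1 in 2 of the 12 ways, at 0.77 after normexp background correction and at 0.93 in the authors' own values. No member probe was saturated.

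Of the members under 1, 17 had a dim IgG signal in the highest window, and their ratios are bounds at most. With the dim signals raised the same windows were at least 1.88-fold for Gnai2, 1.73-fold for Adcy1, 1.68-fold for Pde1b, 1.47-fold for Akap1, 1.21-fold for Prkar2b, 1.11-fold for Adcy3, 1.09-fold for Pde4c and Pde6h and 1.01-fold for Pde1c. For Gnai1, Adcy7, Pde7a, Pde6b, Pde6g, Akap10, Akap7 and Akap2, as for Pde10a among those on the CREM side, the raised window was at or under 0, so no excess of CREM over IgG was bounded. Among the lowest windows, the CREM signal was dim in 1 probe each of Pde10a and Akap1, which were at least 4.2-fold and 2.53-fold lower. The lowest window of Pde1c had 3 dim IgG signals and gives no bound.

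**Figure D4:**
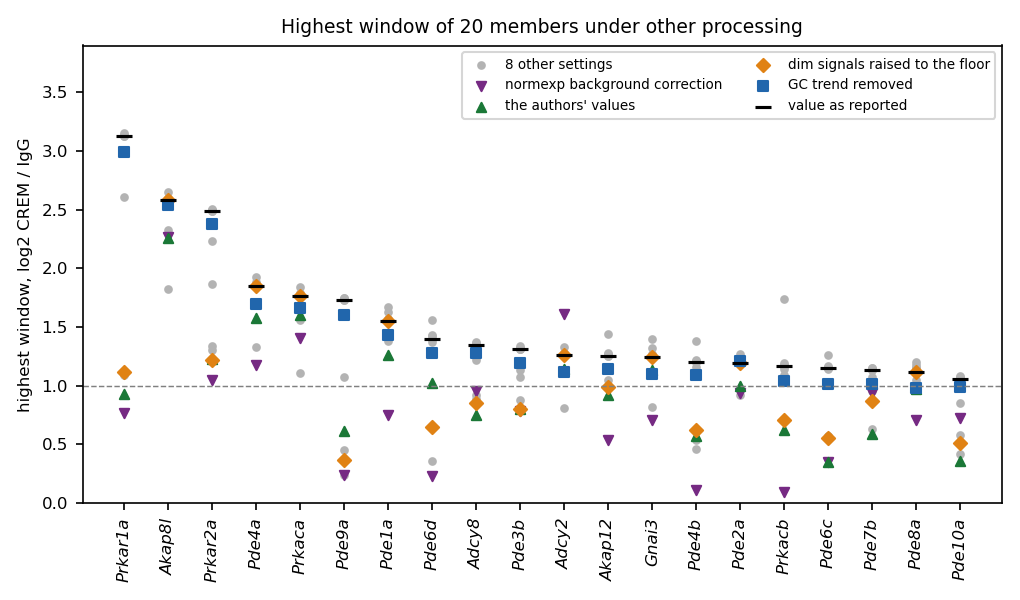
Highest window of the 20 members on the CREM side, as reported (black bar) and under 12 other settings. Values are log2 ratios of CREM over IgG. In each setting the highest window of the gene was taken anew and can lie elsewhere. Coloured symbols mark 4 of the settings and the dashed line a log2 ratio of 1. The points of Akap8l, Prkar2a, Pde4a and Prkaca stay above the line, while Prkar1a runs from 0.77 to 3.15 and Pde9a from 0.24 to 1.75.

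The sides differed in base composition. Member windows on the CREM side had a mean probe GC content of 40.2% ± 5.13 (SD, n = 59 windows), those between the limits 43.0% ± 6.37 (n = 1253) and those on the IgG side 61.3% ± 8.1 (n = 79). Over all genes the same means were 41.0%, 42.4% and 58.5%. In 41 of 48 members the highest window had a lower GC content than the lowest. No such count over all genes is given here, so it is not read as a trait of the members. After the trend of the ratio with GC was removed, 21 of the 27 IgG-side members were above -1 and 2 of the 20 CREM-side members under 1. Removing the trend thus changed more calls on the IgG side than on the CREM side. Over all genes the IgG-side share went from 33.6% to 12.6% and the CREM-side share from 34.4% to 30.7%, so this was not particular to the members. What else moves with GC content was not tested. Of the IgG-side members 20 of 27 had 3 bright probes. Pde10a and Adcy1 stayed at -1 or less in all 12 other settings, by the lowest window of the gene in each.

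Starts of transcription could be placed on the array for 30 of 48 members, by finding probe sequences inside RefSeq promoters. For 11 of the 20 CREM-side members the distance of the highest window was thus known. In 0 of these 11 was its centre within 250 bp of a start, against 14.2% of the 3409 CREM-side genes with a start on the arrays. In 9 (81.8%) it was 250 to 2000 bp away, against 68.9%, and in 2 (18.2%), Pde4a and Pde2a, further, against 16.8%. Upstream of the start were 6 (54.5%), against 57.5%. Of 18 IgG-side members with a start, 11 (61.1%) had the lowest window within 500 bp, against 73.5% of 3394 such genes, and 6 (33.3%) within 250 bp, against 52.8%. With so few members these shares are a description, and most CREM-side windows of all genes lay in the same range of distance.

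Single probes showed the same layout by distance. Between 250 bp upstream and 50 bp downstream of a start the median of 56 member probes was -0.43, against -0.28 for all genes, and 5.36% of them were at 1 or more against 11.3% of all probes there. From 50 to 500 bp downstream the median was -0.56 for 79 member probes and -0.33 for all genes, and 36.7% against 24.6% were at -1 or less. From 1000 to 500 bp upstream the medians were 0.32 and 0.22. The mean GC content of the probes was highest in the same places, at 54.7% for members and 50.3% for all genes around the start, and 55.9% and 51.5% just downstream. Of 51 member probes wholly inside a RefSeq promoter, 3 (5.88%) were at 1 or more against 11.1% of all such probes, and 15 (29.4%) were at -1 or less against 23.2%.

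**Figure D5:**
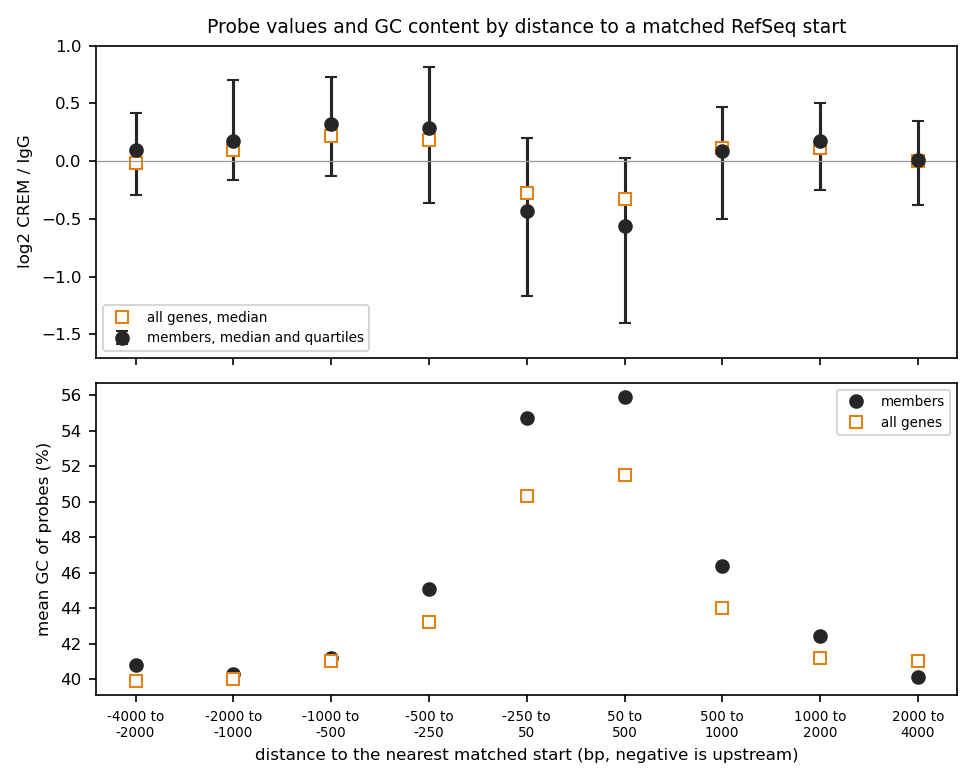
Upper panel, median log2 ratio of CREM over IgG of single probes in bins of distance from the nearest matched RefSeq start, for members (points, bars from the lower to the upper quartile) and all genes (squares); lower panel, mean GC content of the same probes in percent. Members lie below 0 from 250 bp upstream to 500 bp downstream of the start (medians -0.43 and -0.56), where their GC content is highest.

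The cAMP response element was searched as the full palindrome TGACGTCA and as the core TGACG or CGTCA, on both strands; every full element also counts as a core. Of 80 RefSeq promoters of 37 members 2 (2.5%) held the full element, both of them Prkar1a promoters that share 1 element, against 1.79% of all 32851 promoters. A core stood in 21 of 80 (26.2%) against 20.8%. In the probes the full element was as rare among members (1 of 1682, 0.0595%) as among all probes (0.057%), and the core was in 35 member probes (2.08%) against 2.08%. The shares among all member probes were thus near those of all probes.

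The probe with the full element belongs to Akap12 and had a ratio of -0.05. The 3 core probes at 1 or more, of 143 member probes at that level (2.1%, against 2.56% of all probes at 1 or more), were those of Pde4a (1.85, printed above), Pde2a (1.35) and Pde6c (1.15), of which only the first was bright in both channels. The sequences of the others are printed to show the element and its flanks, in capitals as before.
Akap12 probe, chr10:6078038-6078097 (mm9): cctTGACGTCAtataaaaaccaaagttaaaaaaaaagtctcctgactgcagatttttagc
Pde2a probe, chr7:108623343-108623392 (mm9): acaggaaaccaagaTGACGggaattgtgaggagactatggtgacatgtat
Pde6c probe, chr19:38208579-38208636 (mm9): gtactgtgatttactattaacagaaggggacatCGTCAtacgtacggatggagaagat
On the low side 8 of 123 member probes at -1 or less held a core (6.5%), against 5.0% of all probes there. Among them were probes of Adcy9 (-3.05), Pde8a (-2.20), Prkar2a (-2.0) and 2 of Prkaca (-1.85 and -1.39). Of the highest windows of the 20 CREM-side members 2 (10.0%) had a core in a probe, against 10.6% of the highest windows of all genes on that side. In members as in all probes, a core was more frequent at -1 or less than at 1 or more. The core itself holds a CG pair, and member windows on the IgG side were richer in GC (61.3%) than those on the CREM side (40.2%). Core shares were not compared at equal GC content, so the part of base composition in this difference was not tested.

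Other genes of the pathway, from a list kept apart from the members, were also counted. That list too was chosen with earlier results of these data known. Of 45 listed 39 were measured, 19 (48.7%) had a CREM-side window and 16 (41.0%) an IgG-side one, against 34.4% and 33.6% of all genes, with a median highest window of 0.98 and a median lowest of -0.86. These shares were not adjusted for the number of windows per gene, and the single lists are small. The share on the CREM side was 3 of 4 for the PKA inhibitors with the PKA-like kinase Prkx, 6 of 8 for the cyclic nucleotide channels and 3 of 4 for sperm proteins with a docking fold like that of PKA. It was 0 of 2 for the cAMP-regulated exchange factors Rapgef3 and Rapgef4, 1 of 2 for the Popeye proteins, 4 of 11 for other anchors and 2 of 8 for other G protein subunits. The highest with 3 bright probes were Ropn1, a docking-fold protein of the sperm fibrous sheath, at 1.74 (probes from 1.57 to 1.76), the G protein beta subunit gene Gnb2 at 1.5 (-0.29 to 2.54) and Akap3, an anchor of the same sheath, at 1.45 (1.02 to 1.49). In Ropn1 and Akap3 all 3 probes were above 1.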

How the data were processed

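The 2 arrays are Agilent promoter arrays read with Feature Extraction 10.7.1.1, with probe positions in mm9, per the file headers. The authors deposited scanner files with background-subtracted, dye-normalized intensities of both channels, together with flags (other values) for spots well above background, saturated or non-uniform. They also deposited a table of log2 ratios; it matched median background subtraction followed by within-array loess of the scanner signals, to a largest difference of 5e-08, when its values were taken in scanner file order. R 2.10.1 and limma are named in the submitters' processing notes. The steps between scanning and that table are otherwise not given in the sources used here.

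Here log2 of the CREM over the IgG processed signal was centred on each array's median (a shift of 0.02 on both). The values rest on 228277 and 226404 probes, after removal of control spots, of 46 and 9 non-uniform spots, of 299 and 417 probes that lack a position, and of 8573 and 10355 whose signals were dim with both antibodies. Windows were medians of 3 probes with starts at most 500 bp apart, named for the middle probe. With 1 array per gene no test was run; design, call limits and named genes followed fixed rules: the 3 members per role with the highest window on bright probes, all members at 1 or more, the 3 lowest under the same filter, and members with TGACGTCA in a probe. The members and lists were chosen with earlier results of these data known. Pde10a, Adcy1 and Adcy9 on the low side, and values of unnamed members, were added after their values were seen. RefSeq promoter sequences and names came from GRCm38.p6, whose coordinates were not mixed with mm9: probe sequences were matched inside promoters as text. Exons and introns in mm9 were not used here. Windows were checked on simulated data. Alternatives were normexp (offset 50), loess, the authors' values, no centring, other filters, window sizes and gaps, a GC trend removed in bins of 2%, and a limit of 1.5. Python 3.11.15, pandas 2.3.3, R 4.3.3 and limma 3.58.1 were used.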

Additional observations from a re-analysis of the deposited data

How the results depend on the processing

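Counts, medians and shares moved with the background correction, the window, the limit and, on the IgG side, the GC trend; shares of all genes or windows under the same setting are in parentheses. The 20 members with a CREM-side window (34.4% of all genes) became 8 after normexp background correction (16.2%), 8 in the authors' values (17.3%), 12 with probes bright in both channels only (20.8%), 10 with windows of 5 probes (19.8%), 10 with dim signals raised (21.3%) and 7 at a limit of 1.5 (14.1%). The 27 members with an IgG-side window (33.6%) became 4 after normexp (3.7%), 6 with the GC trend removed (12.6%) and 10 at a limit of 1.5 (13.6%). The median highest window of 0.81 became 0.60 after normexp, 0.59 in the authors' values, 0.58 with bright probes only, 0.60 with 5 probes and 0.66 with dim signals raised. The median lowest window of -1.07 (-0.76 for all genes) became -0.52 (-0.33) after normexp and -0.86 (-0.57) in the authors' values. It became -0.72 (-0.5) with 5 probes and -0.7 (-0.59) with the GC trend removed. The share of windows on the CREM side, 4.24% (5.99%), became 1.15% (2.43%) after normexp, 1.73% (2.91%) in the authors' values, 2.65% (4.78%) with 5 probes, 2.52% (3.78%) with dim signals raised and 1.08% (2.03%) at 1.5, so members stayed below all genes. That on the IgG side, 5.68% (4.56%), became 0.575% (0.34%) after normexp, 3.45% (2.65%) in the authors' values, 4.18% (3.38%) with 5 probes and 1.51% (1.48%) at 1.5. With the GC trend removed it was 0.647% (1.24%), so members were then below all genes. The share of member probes with the full element, 0.0595%, became 2.08% for the core and 2.5% for promoters in place of probes. For each of these the cause was not tested. Within-array loess, no centring, no filter on dim spots, the mean of 3 probes and gaps of 300 or 1000 bp left the counts within 1.5 times.

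Raising dim signals and the comparison among genes of 20 to 40 windows were chosen after seeing the data. No paired analysis was possible because each array was hybridised once and the 2 arrays carry different genes; for the same reason no replicate was left out in turn. Signal over background limits the ratios: 80.2% and 81.9% of all probes on the 2 arrays were well above it in both channels, and 13 of the 20 CREM-side members had at least 1 dim probe in the highest window.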

Other observations

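The genes of CREM and its closest relatives were also on the arrays. Crem itself had a highest window of 0.63 (3 bright probes, from 0.07 to 0.83) and a lowest of -0.81. Creb1 had a highest window of 0.62 and a lowest of -2.14, and Atf1 a highest of 1.10 (3 bright probes, from 0.94 to 2.13) and a lowest of -2.24. Of these 3 genes Atf1 was thus on both sides, Creb1 on the IgG side and Crem on neither.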
